A study of Mus musculus with 6 samples.

Results

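The genes described here carry the signal of the natural killer (NK) cell receptors NKp46 and CD16. They are 10 genes, chosen by name for their role in the pathway and not by a measured value, of 56953 in the deposited tables. Ncr1 and Fcgr3 encode the receptors NKp46 and CD16. Fcer1g and Cd247 encode the signalling chains FcR gamma and CD3 zeta, Zap70 and Syk the kinases that bind these chains, Lat and Lcp2 (SLP-76) the scaffolds, and Plcg2 and Vav1 a phospholipase and an exchange factor. All 10 IDs were found by symbol, and all 10 passed the filter on low counts in both groups, with 1449 to 31737 counts per library.

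NK cells from the spleen of wild-type C57BL/6 mice were cultured for 7 days with recombinant human interleukin-2 (1700 U/ml) and 5% CO2. One group was kept at 20% oxygen (normoxia, n = 3 libraries) and the other at 1% oxygen (hypoxia, n = 3 libraries). Neither the age and sex of the mice nor the way the NK cells were isolated was given. The libraries are labelled as biological replicates, with no word on separate mice, pools or cultures, so the spread behind each p-value is that among these 6 libraries and may be technical.

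NKp46 and CD16 have no signalling motif of their own that recruits kinases. NKp46 pairs with FcR gamma and CD3 zeta, and mouse CD16 with FcR gamma. The tails of these chains hold immunoreceptor tyrosine-based activation motifs (ITAMs). When Src family kinases phosphorylate the tyrosines of an ITAM, Syk or ZAP-70 docks there and phosphorylates LAT and SLP-76. These scaffolds gather phospholipase C gamma and Vav1, which set off calcium release, Ras signalling and the actin changes that precede killing. CD16 binds the Fc part of antibodies and lets NK cells kill antibody-coated targets, and NKp46 is a hallmark receptor of NK cells.

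The ITAM-coding stretches of both chains are shown because Fcer1g and Cd247, which stand at the same step, had fold changes of opposite sign. They were read from GENCODE M21 transcripts (build GRCm38), 5′ to 3′, with the codons of the ITAM tyrosines in capitals. An ITAM was found as a tyrosine, 2 codons, leucine or isoleucine, a gap of 6 to 8 codons, and the same 4-codon pattern again.
Fcer1g ITAM: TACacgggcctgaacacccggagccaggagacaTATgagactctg
Cd247 ITAM 1: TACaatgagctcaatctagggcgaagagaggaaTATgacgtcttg
Cd247 ITAM 2: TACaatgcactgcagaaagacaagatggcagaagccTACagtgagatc
Cd247 ITAM 3: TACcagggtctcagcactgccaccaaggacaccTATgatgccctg
Fcer1g holds 1 such motif in its 86 codons (exons within chr1:171229889-171230072, minus strand), and Cd247 holds 3 in its 164 codons (exons within chr1:165856451-165861042, plus strand). Between the tyrosine codons of each motif lie 10 codons, or 11 in the second of Cd247. Other annotated coding transcripts hold fewer motifs, 2 in each of the other 5 of Cd247 and 0 in the other of Fcer1g. The deposited values are sums per gene and do not separate these transcripts.

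Each level below is in CPM, a count scaled to its library's total, with TMM scaling to correct for composition. Each log2 fold change sets hypoxia against normoxia and comes from edgeR's quasi-likelihood test. Its standard error (SE) was derived as the absolute log2 fold change divided by the square root of that test's F statistic. Adjusted p-values are Benjamini-Hochberg values over all 15591 genes tested, and a gene is called below 0.05. Each library held between 55104810 and 55794698 counts, and 1 count was worth about 0.018 CPM. The replicate 1 libraries of both groups stood apart on the second principal component (23.2 and 35, against -20.2 to -11.4 in the other 4 libraries). Same-numbered libraries deviated together, so the fit with the replicate number as a block (the replicate block) is given beside each of the 10 genes whose call it changes, and beside the count of each list.

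After 7 days at 1% oxygen, 3 of the 10 genes were lower and 0 were higher. Cd247, Syk and Lcp2 fell by 23.7%, 22.7% and 25.1%, from the fitted values. At an unadjusted p under 0.05, 5 of the 10 passed, Ncr1 as lower and Fcer1g as higher beside these 3, against 33.6% of all genes tested. Across all genes tested, 20.9% were called, 9.72% as lower and 11.2% as higher. The ranges of the 2 oxygen levels were separate in 4 of the 10 genes (Cd247, Syk, Lcp2 and Ncr1), against 38.3% of all genes tested. The median log2 fold change of the 10 genes was -0.09, against -0.0052 over all genes tested. With the replicate block 6 of the 10 were called, 4 lower and 2 higher, against 39.2% of all genes.

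Per kilobase of transcript, the scale used to compare the levels of the 10 genes with each other, the FcR gamma chain stood far above the rest. Fcer1g had 541 ± 107 CPM per kilobase in normoxia and 709 ± 98.2 in hypoxia (SD, n = 3), and Syk had the lowest level, 8.45 ± 0.453 and 6.53 ± 0.148. In normoxia the order between them was Fcgr3 (129 ± 22), Ncr1 (97.0 ± 4.86), Lcp2 (91.8 ± 5.50), Zap70 (68.1 ± 3.88), Vav1 (54.9 ± 5.01), Plcg2 (40.9 ± 1.98), Cd247 (27.0 ± 1.56) and Lat (22.8 ± 1.27). Of these neighbours, Ncr1 and Lcp2 had overlapping ranges in normoxia (92.6 to 102 and 86.6 to 97.5). In hypoxia Lcp2 (68.7 ± 3.42) stood below Zap70 (76.6 ± 6.75), with overlapping ranges (66.4 to 72.6 and 69.1 to 82.1). Cd247 (20.6 ± 0.624) stood below Lat (23.1 ± 0.622) in hypoxia, without overlap. With the longest transcript in place of the median one, Cd247 stood below Lat in normoxia too (means of 20.7 and 22.6).

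**Figure D1:**
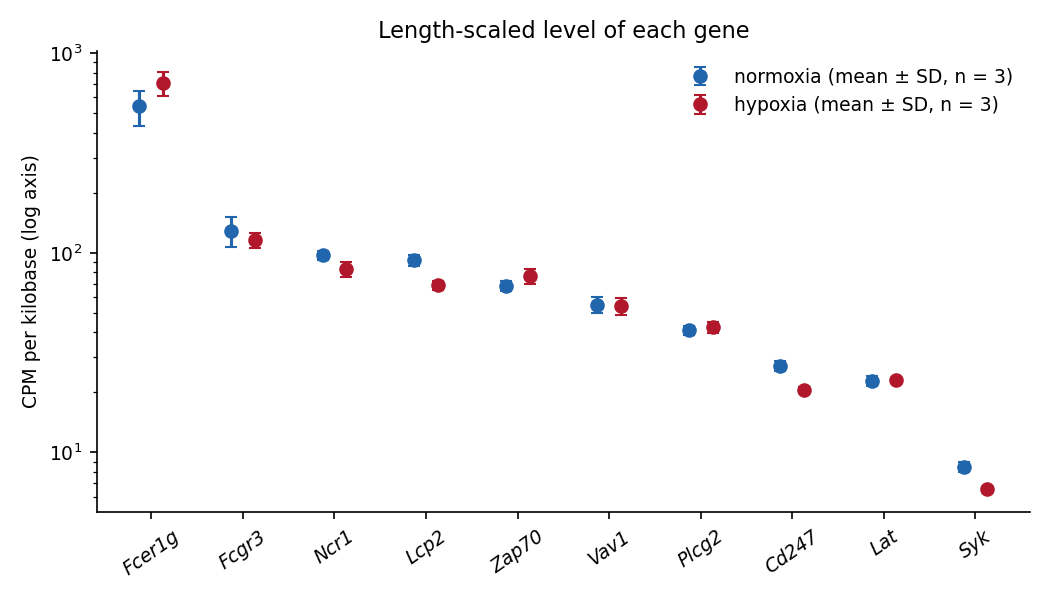
Level of each gene as TMM-scaled CPM per kilobase of its median annotated transcript (log axis), as mean ± SD over 3 libraries in normoxia (blue) and hypoxia (red). Fcer1g stands highest, at 541 and 709, and Syk lowest, at 8.45 and 6.53.

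The receptor genes showed small differences. Ncr1 (ENSMUSG00000062524) stood at 142, 137 and 151 CPM in normoxia replicates 1, 2 and 3, and at 111, 123 and 132 CPM in hypoxia replicates 1, 2 and 3. All 3 hypoxia libraries lay below the lowest normoxia library, and hypoxia replicate 1 was the lowest. The log2 fold change of -0.23 (SE 0.08) was not called (edgeR adjusted p = 0.081), and passed as lower with the replicate block (edgeR adjusted p = 0.0049). Fcgr3 (ENSMUSG00000059498) stood at 202, 172 and 143 CPM in normoxia and 171, 148 and 147 CPM in hypoxia. The groups overlapped, since normoxia replicate 3 was below all 3 hypoxia libraries, and the log2 fold change of -0.15 (SE 0.12) was not called (edgeR adjusted p = 0.42), nor with the block (0.078). Fcgr3 shares sequence with its neighbours Fcgr2b and Fcgr4, between which estimated counts can be divided. Fcgr4 reached at most 0.121 CPM and Fcgr2b at most 0.836 CPM in any library.

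Of the 2 ITAM chains, Cd247 fell, and Fcer1g, with a fold change of the opposite sign, was not called without the block. Cd247 (ENSMUSG00000005763) stood at 65.2, 59.7 and 58.6 CPM in normoxia and at 46.0, 45.8 and 48.3 CPM in hypoxia. All hypoxia libraries lay below all normoxia libraries, and the hypoxia libraries were close together. The gene fell by 0.39 on the log2 scale (SE 0.07, edgeR adjusted p = 0.0041). Fcer1g (ENSMUSG00000058715) stood at 450, 334 and 317 CPM in normoxia and at 556, 429 and 457 CPM in hypoxia. Replicate 1 was the highest library of each group, and normoxia replicate 1 lay inside the hypoxia range, so the groups overlapped. Within each numbered pair hypoxia was higher, by 0.31, 0.36 and 0.53 on the log2 scale. The log2 fold change of 0.39 (SE 0.14) was not called (edgeR adjusted p = 0.083). It passed as higher with the replicate block (0.40, SE 0.06, edgeR adjusted p = 0.00021), without normoxia replicate 1 (0.56, edgeR adjusted p = 0.0057) and without both replicate 1 libraries (0.45, edgeR adjusted p = 0.0033).

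The kinase pair was split as well, with Syk called lower and Zap70 not called. Syk (ENSMUSG00000021457) stood at 41.2, 45.8 and 42.9 CPM in normoxia and at 34.2, 32.7 and 33.5 CPM in hypoxia. No library of one group reached the range of the other, and the gene fell by 0.37 on the log2 scale (SE 0.07, edgeR adjusted p = 0.0055). Zap70 (ENSMUSG00000026117) stood at 144, 162 and 153 CPM in normoxia and at 155, 177 and 184 CPM in hypoxia, with overlapping groups and a higher value in hypoxia in each numbered pair (0.10, 0.13 and 0.27 on the log2 scale). Its log2 fold change of 0.17 (SE 0.09) was not called (edgeR adjusted p = 0.20), and passed as higher with the replicate block (edgeR adjusted p = 0.024).

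Of the scaffolds, Lcp2 fell and Lat was not called. Lcp2 (ENSMUSG00000002699) stood at 285, 267 and 253 CPM in normoxia and at 194, 196 and 213 CPM in hypoxia. The highest hypoxia library lay below the lowest normoxia library, and the gene fell by 0.42 on the log2 scale (SE 0.08, edgeR adjusted p = 0.0050). Lat (ENSMUSG00000030742), the membrane scaffold, stood at 29.3, 26.2 and 28.3 CPM in normoxia and at 27.7, 29.2 and 28.1 CPM in hypoxia, with all hypoxia libraries inside the normoxia range. Its log2 fold change was 0.021 (SE 0.07, edgeR adjusted p = 0.88).

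Neither effector was called. Plcg2 (ENSMUSG00000034330) stood at 166, 183 and 179 CPM in normoxia and at 168, 187 and 190 CPM in hypoxia, a log2 fold change of 0.045 (SE 0.08; adjusted p = 0.74 from edgeR). Vav1 (ENSMUSG00000034116) stood at 139, 157 and 167 CPM in normoxia and at 137, 153 and 166 CPM in hypoxia, a log2 fold change of -0.023 (SE 0.10; adjusted p = 0.90 from edgeR). In both genes replicate 1 was the lowest library of each group, and in Vav1 same-numbered libraries lay closer together than any 2 libraries of the same oxygen level. The within-pair differences of Vav1 were -0.02, -0.04 and -0.01 on the log2 scale, and those of Plcg2 were 0.02, 0.03 and 0.08.

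**Figure D2:**
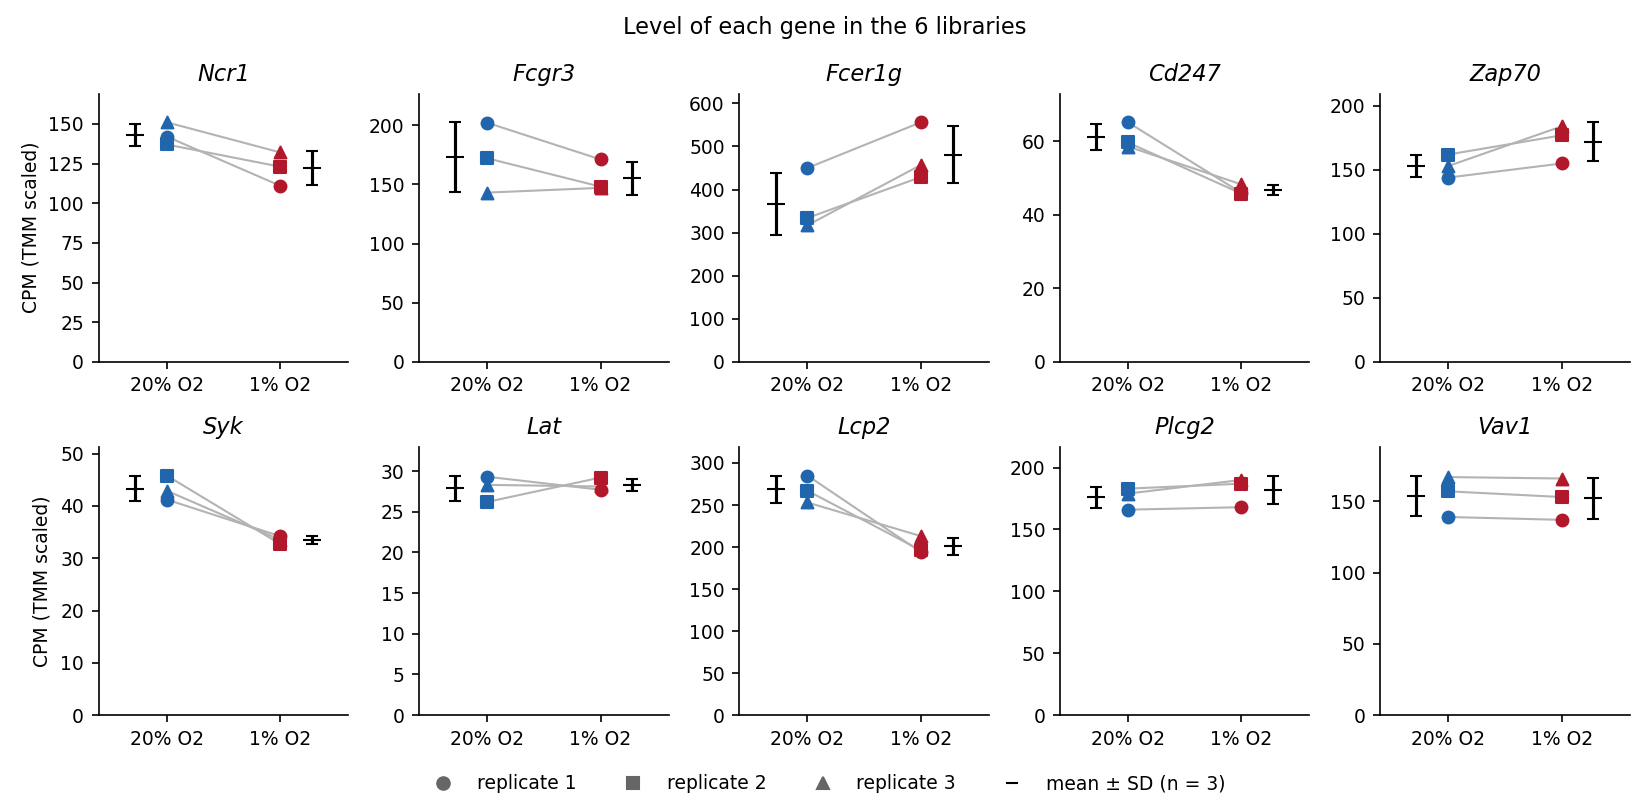
Level of each of the 10 genes in the 6 libraries (CPM, TMM scaled, axes from 0), normoxia in blue and hypoxia in red, with lines joining same-numbered replicates and bars for mean ± SD (n = 3). Cd247, Syk and Lcp2 lie lower in all hypoxia libraries, Fcer1g is higher in hypoxia within each pair, and Vav1 differs least within pairs.

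The 3 calls held in every one of the 6 fits that left out a single library. The log2 fold change then ran from -0.42 to -0.34 for Cd247, from -0.41 to -0.33 for Syk and from -0.46 to -0.37 for Lcp2, with edgeR adjusted p of at most 0.029, 0.043 and 0.035. Without both replicate 1 libraries these 3 were again called lower (edgeR adjusted p = 0.011, 0.0043 and 0.011). Ncr1 was not called in any of these 7 fits, nor were Fcgr3, Zap70, Lat, Plcg2 and Vav1.

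**Figure D3:**
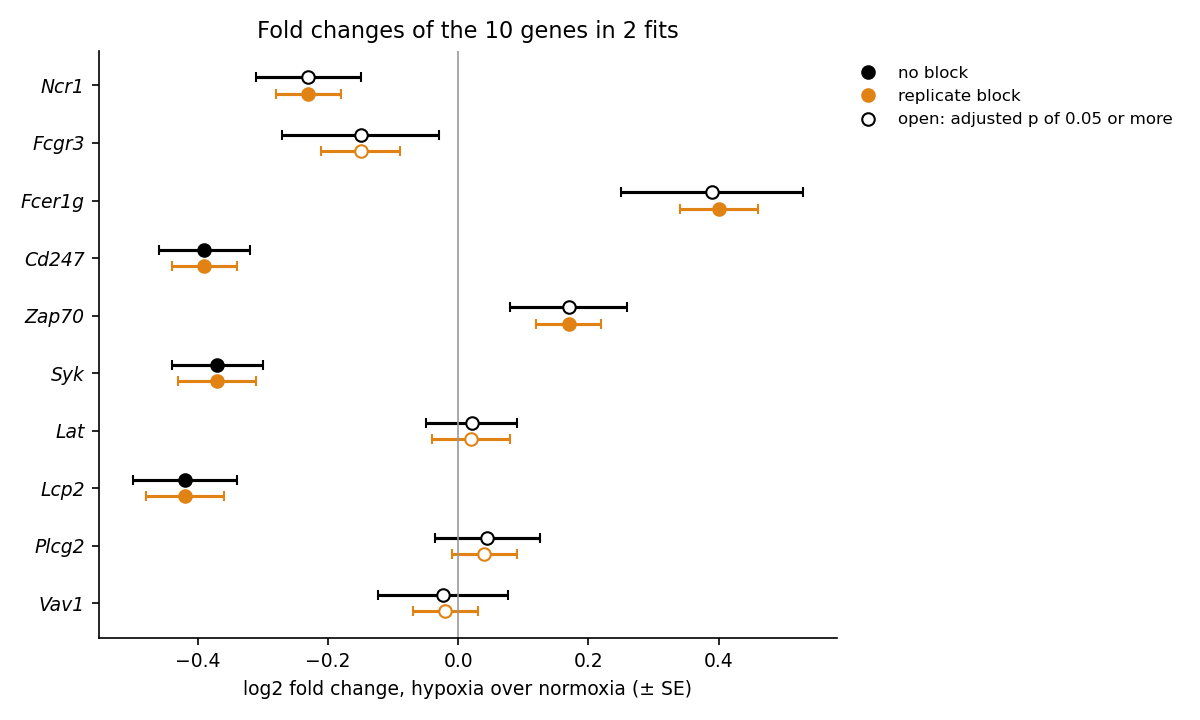
Log2 fold change ± SE of each gene, hypoxia over normoxia, without a block (black) and with the replicate block (orange), filled where the edgeR adjusted p is under 0.05. Cd247, Syk and Lcp2 are filled in both fits, and Ncr1, Fcer1g and Zap70 only with the block.

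Ratios of 2 genes within a library do not depend on how the library is scaled, and were compared for 4 pairs of genes that act at the same step. Their level includes transcript length, so only the change is read. The Fcer1g to Cd247 count ratio was 6.89, 5.59 and 5.4 in normoxia and 12.1, 9.37 and 9.47 in hypoxia. All hypoxia libraries lay above all normoxia libraries, a 1.73-fold higher ratio (log2 difference 0.79, SE 0.16), and the 3 numbered pairs gave 0.81, 0.75 and 0.81. The Syk to Zap70 ratio was 0.286, 0.283 and 0.280 in normoxia and 0.220, 0.185 and 0.182 in hypoxia, 31.1% lower without overlap (log2 difference -0.54, SE 0.09). For both ratios the 2-sided exact permutation p was 0.10, the smallest that 3 libraries against 3 allow, and 0.13 after adjustment over the 4 ratios.

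The other 2 ratios concerned the receptors and the phospholipases. The Fcgr3 to Ncr1 ratio was 1.42, 1.26 and 0.949 in normoxia and 1.54, 1.20 and 1.11 in hypoxia, with overlapping groups (log2 difference 0.09, SE 0.22, exact permutation p = 0.80). The Plcg2 to Plcg1 ratio was 23.8, 20.4 and 26.9 in normoxia and 16.7, 12.4 and 16.4 in hypoxia, 36% lower without overlap (log2 difference -0.64, SE 0.18, exact permutation p = 0.10, adjusted p = 0.13). Plcg2 itself was not called, while Plcg1, the phospholipase C gamma form that prevails in T cells, was called higher.

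**Figure D4:**
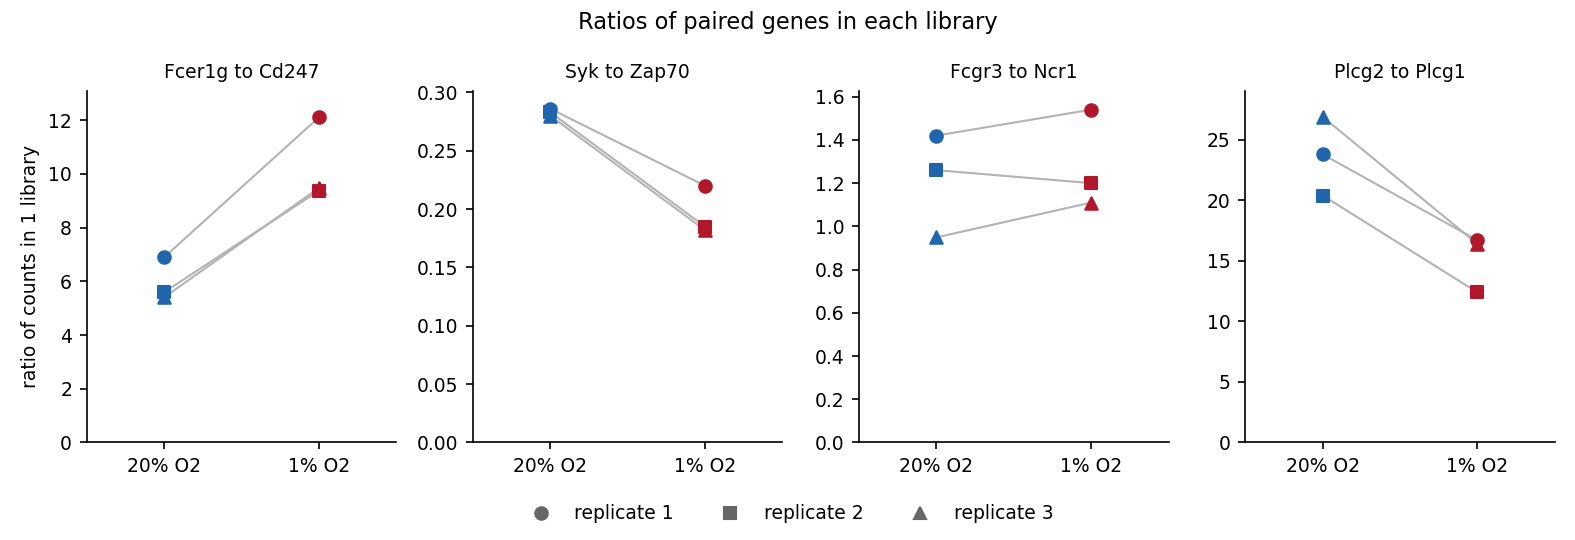
Ratio of the counts of 2 genes in each library (axes from 0), with lines joining same-numbered replicates. The Fcer1g to Cd247 ratio is higher in all 3 hypoxia libraries, and the Syk to Zap70 and Plcg2 to Plcg1 ratios are lower in all 3.

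Other genes of the pathway were taken from a list of 94 arranged by role, of which 88 passed the filter on low counts. Of these 88, 10 rose and 13 fell, or 26.1% against 20.9% of all genes tested, with a median log2 fold change of -0.04. The fit with the block gave 16 that rose and 28 that fell, 44 of 88 against 39.2% of all genes tested. With 1 library left out, 5 to 9 rose and 4 to 11 fell, the fewest without hypoxia replicate 2 (5 and 4) and without normoxia replicate 2 (6 and 4). Without hypoxia replicate 1, 7 fell, and without hypoxia replicate 3, 6 rose and 8 fell. Of the 23 calls, 9 held in all 6 of these fits (Cd3d, Cd3g, Pag1, Tec, Pik3r2, Pik3cd, Prkcq, Malt1 and Dok2). The count of each role list below stands beside a share of 20.9% of all genes tested (9.72% lower, 11.2% higher). With the block that share was 39.2%.

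At the level of the ITAM chains, 3 of 5 tested genes of other Fc receptors and ITAM chains rose and 0 fell, in both fits. Cd3d and Cd3g, which encode ITAM-bearing CD3 chains of the T cell receptor, rose from 20.1 ± 1.08 to 42.2 ± 5.06 CPM and from 56.2 ± 6.80 to 103 ± 10.9 CPM (SD, n = 3; log2 fold change 1.07 and 0.87, edgeR adjusted p = 0.00010 and 0.00047). Cd3e, the third CD3 chain gene, had a log2 fold change of -0.05 (edgeR adjusted p = 0.86). Fcgr2b, an inhibitory Fc receptor gene, rose from 0.358 ± 0.106 to 0.772 ± 0.107 CPM (edgeR adjusted p = 0.021), a call lost on leaving out replicate 2 or 3 of either group (0.054 to 0.070). Tyrobp, which encodes the ITAM adaptor DAP12, had a log2 fold change of -0.12 (edgeR adjusted p = 0.56).

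Among Src family kinases and the genes that set their activity, 1 of 9 rose and 0 fell (2 and 2 with the block). Pag1, a membrane anchor for the inhibitory kinase Csk, rose from 69.2 ± 2.13 to 89.2 ± 4.40 CPM (log2 fold change 0.37, edgeR adjusted p = 0.0050). Tec family kinases activate phospholipase C gamma. Tec rose from 42.8 ± 0.619 to 54.7 ± 2.82 CPM (edgeR adjusted p = 0.0059). Txk fell from 285 ± 9.05 to 239 ± 17.3 CPM (edgeR adjusted p = 0.045), a call kept only without hypoxia replicate 3 (0.062 to 0.20 without each of the other 5 libraries).

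Of 19 other adaptors and exchange factors, 2 rose and 2 fell (2 and 6 with the block). Grap2, the gene of the adaptor Gads that links LAT to SLP-76, fell by 0.26 on the log2 scale (edgeR adjusted p = 0.021), and Fyb, the gene of an SLP-76-binding adaptor, fell by 0.24 (edgeR adjusted p = 0.032). Each of these 2 calls held without normoxia replicate 1 and was lost without any other single library (0.061 to 0.079 for Grap2 and 0.054 to 0.14 for Fyb). The adaptor genes Nck1 and Nck2 rose by 0.27 and 0.52 on the log2 scale (edgeR adjusted p = 0.039 and 0.024). Nck1 lost its call on leaving out replicate 2 or 3 of hypoxia or 1 or 2 of normoxia (0.074 to 0.13), and Nck2 on leaving out replicate 2 or 3 of hypoxia or 2 of normoxia (0.067 to 0.095).

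Of 8 PI3-kinase genes, 1 rose and 2 fell (1 and 3 with the block). Pik3cd, the catalytic subunit gene p110 delta of lymphocytes, fell from 739 ± 58.0 to 524 ± 31.5 CPM (log2 fold change -0.50, edgeR adjusted p = 0.0035). Pik3r2, a regulatory subunit gene, rose from 13.4 ± 1.91 to 22.8 ± 0.415 CPM (log2 fold change 0.77, edgeR adjusted p = 0.00091). Pik3cb, another catalytic subunit gene, fell by 0.31 on the log2 scale (edgeR adjusted p = 0.015), a call lost without hypoxia replicate 2 (0.063) or normoxia replicate 2 (0.053).

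In the calcium, NFAT and CARD branches, a list that includes Plcg1 itself, 2 of 20 tested genes rose and 2 fell (4 and 8 with the block). Malt1, the paracaspase gene of the CARD complex, fell from 271 ± 3.31 to 186 ± 9.33 CPM (log2 fold change -0.54, edgeR adjusted p = 0.00075). Prkcq, the gene of protein kinase C theta, stood between 80.1 and 85.7 CPM in normoxia and between 57.4 and 65.8 CPM in hypoxia, and fell by 0.43 on the log2 scale (edgeR adjusted p = 0.0030). Plcg1 rose from 7.53 ± 1.25 to 12.2 ± 2.55 CPM (edgeR adjusted p = 0.015), a call lost without hypoxia replicate 2 (0.053). Stim2, a calcium sensor gene of the endoplasmic reticulum, rose by 0.24 on the log2 scale (edgeR adjusted p = 0.037) and was not called without any single library (0.052 to 0.16). In the MAP kinase branch 0 of 9 rose and 1 fell (1 and 3 with the block). That gene was Braf, which fell by 0.26 on the log2 scale (edgeR adjusted p = 0.034), a call that held only without hypoxia replicate 1 (0.055 to 0.15 without each of the other 5).

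Of 15 negative regulators, 4 fell and 0 rose (4 fell and 2 rose with the block). The 4 were 26.7% of the list, against 20.9% of all genes tested. With the block 6 of 15 were called, against 39.2%. The 2 that rose with it were Ptpn6 (log2 fold change 0.35, edgeR adjusted p = 0.00019) and Sla2 (0.16, edgeR adjusted p = 0.036). Without the block neither was called (edgeR adjusted p = 0.11 and 0.16), and the median log2 fold change of the list was -0.01. Dok2, which encodes an adaptor that restrains Ras signalling, fell from 168 ± 1.30 to 105 ± 1.6 CPM (a log2 fold change of -0.68 with SE 0.07; adjusted p = 0.00012 from edgeR), with the 3 hypoxia libraries between 104 and 107 CPM. Ptpn22, a tyrosine phosphatase gene, fell by 0.36 on the log2 scale (edgeR adjusted p = 0.040), a call that held only without normoxia replicate 3 (0.052 to 0.12 without each of the other 5). Ubash3a, a gene of the Sts phosphatase family, fell by 0.35 (edgeR adjusted p = 0.035) and was not called without any single library (0.053 to 0.13). The fourth was Cblb, a ubiquitin ligase gene, which was named after its values were seen. Its adjusted p of 0.045 from edgeR was 0.086 to 0.14 on leaving out replicate 2 or 3 of hypoxia or 1 or 2 of normoxia. With scaling by library size alone, 8 of the 23 calls were lost, all of them decreases (Txk, Grap2, Fyb, Pik3cb, Braf, Ptpn22, Cblb and Ubash3a, edgeR adjusted p = 0.059 to 0.14).

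**Figure D5:**
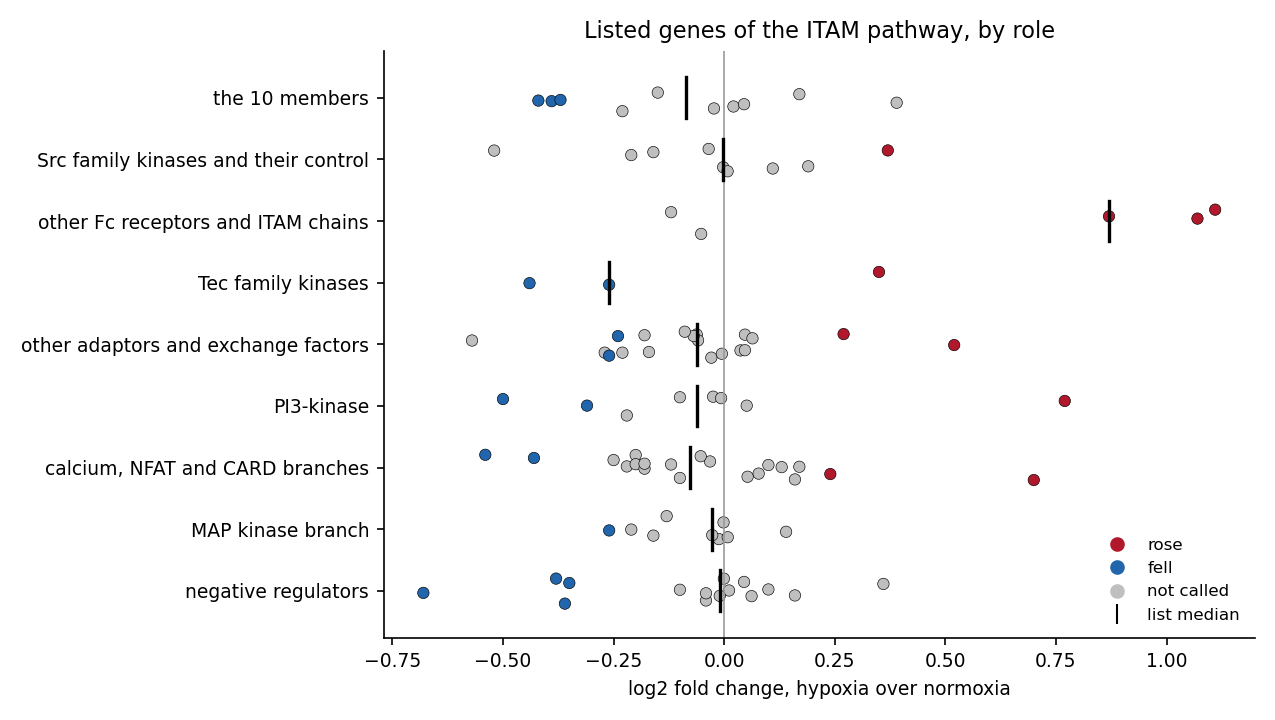
Log2 fold change of the 10 genes and of the 88 tested pathway genes, by role, with genes that rose in red, genes that fell in blue, others in grey and a bar at each list's median. Without the block, the 4 calls among 15 negative regulators (26.7%, against 20.9% of all genes tested) are all decreases. Cd3d, Cd3g and Fcgr2b stand far to the right (0.87 to 1.11).

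Several of the 10 genes are also used by other leukocytes, such as Syk and Plcg2 in B cells, Fcer1g and Fcgr3 in myeloid cells and basophils, and Cd247, Zap70, Lat and Lcp2 in T cells. In bulk libraries fewer cells of a type and less RNA per cell cannot be told apart. NK cell markers, Ncr1 among them, were abundant, and 1 of 10 was called, Eomes as lower. With the block 6 of 10 were called, 2 as higher (Tbx21 and Nkg7) and 4 as lower (Ncr1, Klrk1, Eomes and Prf1). Over all genes tested, 20.9% were called without the block and 39.2% with it, the shares beside which each marker list stands. The NK cell list had the following levels. The 10 NK cell markers summed to 15800 to 17100 CPM in normoxia and 14900 to 17800 CPM in hypoxia. The most CPM came from Gzmb (granzyme B) and Prf1 (perforin), neither of which was called without the block (edgeR adjusted p = 0.87 and 0.051). The 10 T cell markers summed to 571 to 582 CPM in normoxia and 537 to 616 CPM in hypoxia, with 3 higher (Cd3d, Cd3g and Cd4) and 0 lower. Most of that sum was the receptor constant genes Trbc1 and Trbc2 (edgeR adjusted p = 0.14 and 0.066). With the block 4 of the 10 were higher (also Cd8b1) and 2 lower, Trbc1 and Trbc2 (edgeR adjusted p = 0.010 and 0.0083). Cd4 reached at most 0.866 CPM in any library, and Cd8a stood between 10.1 and 18.8 CPM.

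Of the 8 B cell markers 2 were tested, 1 of them higher (both with the block), and the sum was 54.9 to 70.3 CPM in normoxia and 73.0 to 78.0 CPM in hypoxia. Nearly all of it was Ighm, while Cd79b reached at most 1.04 CPM, and the defining genes Ms4a1, Pax5 and Blk stayed below 0.1 CPM in every library. The 10 macrophage and monocyte markers summed to 15.6 to 29.3 CPM in normoxia and 50.9 to 83.6 CPM in hypoxia (4 tested, 2 higher and 1 lower). That sum was led by the lysosomal gene Cd68 and then by Cd14, which fell, while Adgre1, Fcgr1 and the 3 C1q genes stayed below 0.1 CPM. The 8 basophil and mast cell markers summed to 236 to 259 CPM in normoxia and 383 to 437 CPM in hypoxia (5 tested, 3 higher and 1 lower), led by Kit and Mcpt8. Mcpt8 rose from 21.1 ± 4.10 to 79.7 ± 6.61 CPM (SD, n = 3; log2 fold change 1.92, edgeR adjusted p = 1.9e-05). Kit and Cpa3 were also called higher and Cyp11a1 lower, while Fcer1a and Ms4a2 of that list stayed below 0.1 CPM.

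Summed levels of 3 more marker lists were also higher in hypoxia. The 8 dendritic cell markers summed to 172 to 196 CPM in normoxia and 316 to 357 CPM in hypoxia (4 tested, 2 higher and 1 lower), led by Itgax, which rose, and Zbtb46, which fell, with Flt3, Siglech, Clec9a and Cd209a below 0.1 CPM. The 7 innate lymphoid cell markers summed to 66.3 to 77.1 CPM in normoxia and 120 to 142 CPM in hypoxia (5 higher and 0 lower), with Tmem176b rising from a mean of 18.4 to 44.0 CPM and Gata3 not called at 26.1 and 24.9 CPM. The 6 neutrophil markers summed to at most 0.253 CPM in normoxia and 1.63 CPM in hypoxia, with the 2 tested (S100a8 and S100a9) both called higher and passing the filter through hypoxia alone. The block changed no call in the macrophage, basophil, dendritic, innate lymphoid or neutrophil lists. The part of any of these lists in the levels of the 10 genes was not tested.

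The windows upstream of the 3 genes that fell are shown because these genes were called in the same direction. Each is the 250 bases before an annotated start, from RefSeq (GRCm38.p6), 5′ to 3′ on the gene's strand. Capitals mark matches, on either strand, to the core ACGTG or GCGTG of sites bound by the hypoxia-inducible factor HIF, or to TGTGGT, a core bound by RUNX factors, which act in NK cells.
Cd247, chr1:165788431-165788680, plus strand: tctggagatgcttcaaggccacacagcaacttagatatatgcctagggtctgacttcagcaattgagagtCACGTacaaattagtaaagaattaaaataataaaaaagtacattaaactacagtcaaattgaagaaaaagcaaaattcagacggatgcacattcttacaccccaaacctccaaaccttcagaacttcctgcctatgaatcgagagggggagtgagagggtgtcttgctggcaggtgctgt
Lcp2, chr11:34046678-34046927, plus strand: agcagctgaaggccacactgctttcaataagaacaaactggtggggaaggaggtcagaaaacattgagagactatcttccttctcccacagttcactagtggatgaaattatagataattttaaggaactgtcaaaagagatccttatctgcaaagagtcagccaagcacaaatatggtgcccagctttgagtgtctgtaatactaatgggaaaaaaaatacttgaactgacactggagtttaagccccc
Syk, upstream start, chr13:52583187-52583436, plus strand: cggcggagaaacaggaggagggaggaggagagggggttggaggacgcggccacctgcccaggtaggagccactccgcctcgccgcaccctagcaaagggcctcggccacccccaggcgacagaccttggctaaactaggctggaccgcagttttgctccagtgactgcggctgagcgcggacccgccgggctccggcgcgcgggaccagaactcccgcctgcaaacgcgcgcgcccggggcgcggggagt
Syk, downstream start, chr13:52596632-52596881, plus strand: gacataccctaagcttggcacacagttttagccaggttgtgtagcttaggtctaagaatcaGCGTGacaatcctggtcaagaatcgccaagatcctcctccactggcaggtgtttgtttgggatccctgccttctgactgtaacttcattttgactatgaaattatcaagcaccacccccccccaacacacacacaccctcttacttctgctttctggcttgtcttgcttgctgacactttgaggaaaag
The window of Cd247 held 1 match to ACGTG, on the reverse strand, that of Lcp2 held no match, and of the 2 windows of Syk the downstream one held 1 match to GCGTG. None of these 4 windows held TGTGGT. Of the 15 windows annotated for the 10 genes, some of which overlap, 9 held a HIF core and 3 held TGTGGT. Of 32851 windows of that length across all genes, 38.6% held a HIF core (16.6% ACGTG and 28.2% GCGTG) and 14% held TGTGGT. A match to ACGTG on both strands at once (the letters CACGTG) was counted in Lat and Plcg2, neither of which was called.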

How the data were processed

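RNA of NK cells was measured in 6 libraries, 3 per oxygen level. Per the labels' protocols, RNA came from a column kit, and stranded mRNA libraries were sequenced on a DNBSEQ platform. The submitters' processing notes name Trim Galore 0.6.4, kallisto 0.4.6, edgeR 3.17 and build GRCm39, without order or settings. No annotation release was stated there. Per Ensembl gene, the authors deposited estimated counts, not normalized (69.5% of values whole within 1e-06), and log2 CPM values, which equal edgeR's log2 CPM of those counts with a prior count of 2 to within 6.2e-15.

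Symbols came from GENCODE M21 (52029 of 56953 IDs; IDs without one held 0.32% to 0.40% of counts). It belongs to build GRCm38, so only RefSeq and GENCODE coordinates of that build are given. Estimated counts were rounded, filtered (filterByExpr, minimum count 10, minimum total 15; 15591 genes) and scaled by TMM, and tested with edgeR 4.0.16 (quasi-likelihood, no covariate, threshold 0.05). limma 3.58.1 and DESeq2 1.42.0 gave alternatives. The fits were tested on simulated data. CPM per kilobase used the median length of basic transcripts. After subtracting each group's mean, same-numbered libraries correlated at 0.467, 0.332 and 0.298, all above 0.1, so the replicate numbers of the labels were taken to pair the libraries. Differently numbered libraries correlated at -0.35 to 0.118, and hypoxia replicate 2 with normoxia replicate 3 (0.118) also passed 0.1. Libraries of a group differed beyond sampling noise (chi-square of 12.4 to 59.2 per gene). Named were all 10 genes, up to 3 called genes with the smallest p per direction in each pathway list, or its most abundant gene, and the 2 most abundant genes of each marker list. Others were named after their values were seen, and a few results are not reported here. The genes, lists and alternatives were chosen with earlier results of these data known.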

Additional observations from a re-analysis of the deposited data

How the results depend on the processing

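Cd247, Syk and Lcp2 were called lower under all 15 alternatives run (other scalings, filters and tools, the replicate block, each library left out, and both replicate 1 libraries left out). The number of the 10 genes called higher went from 0 to 1 (Fcer1g) with scaling by library size (log2 fold change 0.48), no filter on low counts (0.38), the DESeq2 Wald test (0.39), limma-trend on the deposited log2 CPM (0.48) and without both replicate 1 libraries (0.45). It ranged from 0 to 1 with single libraries left out and was 2 (Fcer1g and Zap70) with the replicate block, which also added Ncr1 as lower. Vav1, never called, ran from -0.09 to 0.05 with single libraries left out, and changed sign under limma-trend and under library-size scaling (0.06 in both) and without hypoxia replicate 1 (0.05) or normoxia replicate 3 (0.03), and Lat without normoxia replicate 2 (-0.03).

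Of the pathway genes, 10 rose and 13 fell in the main fit, and 16 rose and 28 fell with the replicate block. Under limma-trend and under scaling by library size, 14 rose and 5 fell, so the balance of directions depended on the scaling. With single libraries left out 5 to 9 rose and 4 to 11 fell. Over all genes 1745 rose and 1516 fell, against 2988 and 3120 with the replicate block, and 1146 to 1980 and 804 to 1636 with single libraries left out. Scaling by library size left 998 lower and limma-trend 987, so 70.5% and 70.7% of calls were higher in place of 53.5%, with a median log2 fold change of 0.077 and 0.078.

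The Fcgr3 to Ncr1 log2 difference ran from -0.08 to 0.22 with single libraries left out, and was -0.05 without hypoxia replicate 1 and -0.08 without normoxia replicate 3. The other 3 ratios kept their direction in all alternatives. Within pairs (replicate block) the exact sign-flip p of the Fcer1g to Cd247 ratio was 0.25, the smallest that 3 pairs allow. The causes of these changes were not tested. With 3 libraries per group, differences as small as those of Fcgr3, Lat, Plcg2 and Vav1 were not resolved.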
